A study of Mus musculus with 3 samples.

Results

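The tripartite motif (TRIM) genes encode a large family of ubiquitin ligases, and their RNA was compared between 4T1 cancer stem cell spheroids (CSCsp) cultured alone or together with splenocytes. Genes were chosen by symbol, Trim followed by a number and at most 1 letter, which gave 58 of the 24402 gene symbols in the deposited data. Of these 58, 35 reached 1 FPKM (fragments scaled to the length of the transcript and the depth of the library) in at least 1 library and are described one by one or in groups, and 23 stayed under it. In all, 11323 genes reached that level. FPKM was summed over the RefSeq transcripts of a gene and the transcripts that the authors assembled from the reads at the same locus. On RefSeq transcripts alone, 30 TRIM genes reached 1 FPKM. The other five, Trim6, Trim21, Trim23, Trim34a and Trim59, did so only with the assembled transcripts.

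The mouse line 4T1 comes from a triple negative mammary tumor of Balb/c origin, and CSCsp are the spheres that it forms without attachment in serum-free medium, here grown for 7 days and retained on a 40 μm strainer. There were 3 libraries, 1 per condition. By the labels, N is CSCsp with no co-culture, P is CSCsp co-cultured with tumor antigen primed splenocytes, and R is CSCsp co-cultured with primed splenocytes given reinforced activation by anti-CD3/CD28 beads and IL2. The splenocytes came from Balb/c mice that were 8 weeks old when injected with 4T1 cells and had carried the tumors for 28 days. RNA of several independent experiments was multiplexed for each condition, so no difference has a replicate check, and none was tested. The intervals given are exact 95% intervals on fragments (Poisson for a level, Clopper-Pearson for a ratio) and cover counting error only. Genes beyond counting error were counted among the TRIM genes alone, so those counts have no share over all genes beside them. The N-, P- and R-labelled libraries held about 17894139, 17887652 and 19178982 fragments.

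The labels N and P are not certain. The deposited data of the N-labelled library are named after the saline in which primed splenocytes were held, and those of the P-labelled library after no treatment. Most of the arginine gene levels printed by the study lay nearest to the library of the other label. The libraries are therefore called by their labels, and any direction between N and P is only as sure as the labels. The spheroids were checked by marker lists. All 6 epithelial markers were present in each library, with Epcam, an epithelial adhesion molecule, at 285, 242 and 245 FPKM in the N-, P- and R-labelled libraries. Their summed level was lowest in the R-labelled library, at 2181, 1926 and 1615 FPKM, and Krt14, a basal keratin, was at least 2-fold lower there, at 32.3, 33.6 and 14.0 FPKM. The summed level of 7 markers of leukocytes of any kind was 7.32, 0.417 and 6.65 FPKM, and that of 8 markers of macrophages and neutrophils was 66.6, 19.3 and 58.6 FPKM. None of 8 T and NK cell markers or of 4 B cell markers reached 1 FPKM in any library, with Cd3e at 0, 0 and 0.077 FPKM. The summed level of 6 red cell markers was 40.1, 34.7 and 28.7 FPKM, mostly from the globin gene Hba-a2 at 30.2, 29.5 and 16.6 FPKM. In bulk RNA, fewer cells of a type and less RNA per cell cannot be told apart.

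TRIM proteins share an N-terminal module of a RING finger, B-box zinc fingers and a coiled coil, and differ in their C-terminal domains. The RING finger passes ubiquitin from a conjugating enzyme to a substrate, and the C-terminal domain, most often PRY-SPRY, selects that substrate. Many PRY-SPRY members act in antiviral defense, are induced by interferons and regulate the signaling proteins downstream of RNA and DNA sensors. Members with a PHD finger and a bromodomain work instead in the nucleus, as regulators of transcription.

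Of the 12 measured TRIM genes of the innate immunity list, 11 stood higher in the R-labelled library than in both others, Trim65 being the exception, and the chromatin TRIM genes did not. This list was chosen with earlier results of these data known and need not hold every TRIM gene with an innate immune role. The count therefore describes the listed genes only. Of the 35 measured TRIM genes, 23 were highest in the R-labelled library, 9 were lowest there and 3 lay between the others. The same was not counted over all genes, but single pairs of libraries were. In the R-labelled library, 24 of 35 were higher than in the N-labelled library, as were 6755 of all 11203 genes compared. Against the P-labelled library, 25 of 35 were higher, as were 6058 of all 11213 genes compared. The summed level of all TRIM genes was 441.8 FPKM in the N-labelled library, 455.7 FPKM in the P-labelled library and 558.4 FPKM in the R-labelled library. The 12 measured genes of the innate immunity list accounted for 104.2, 102.9 and 209.8 FPKM of these sums, or 23.6%, 22.6% and 37.6%. Thus their summed level was about the same in the N- and P-labelled libraries and higher in the R-labelled library. Among the 35 genes, Trim6 and Trim30d reached 1 FPKM in the R-labelled library alone, so that their higher level there was partly set by the threshold. Without them, 9 of 10 innate immunity genes were higher in the R-labelled library than in both others, beyond counting error, which was not counted over all genes. The median level of the 35 genes was 8.09, 7.85 and 8.70 FPKM.

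**Figure D1:**
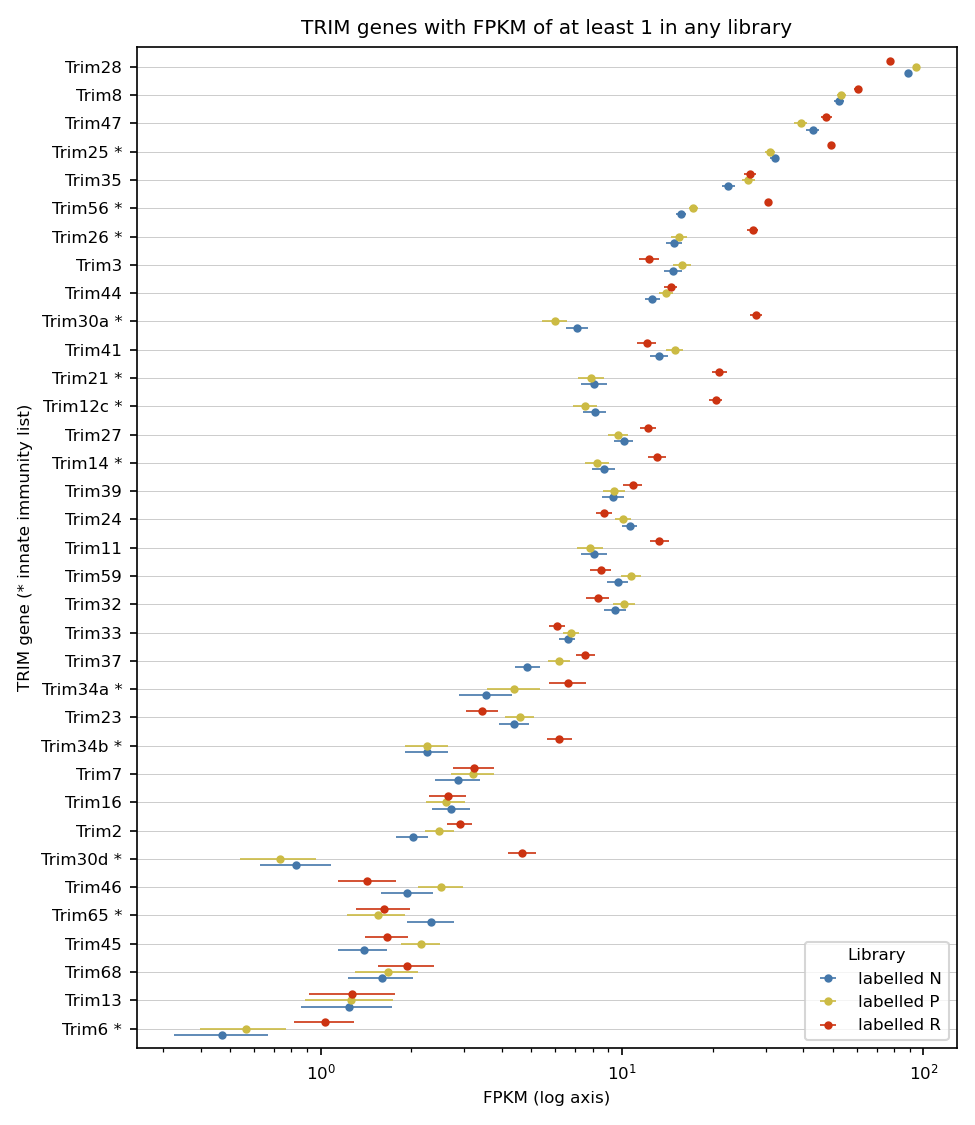
FPKM on a log axis (horizontal) of the 35 TRIM genes that reached 1 FPKM (vertical, by mean level) in the N-, P- and R-labelled libraries. Each point is the sum of a gene and each bar its exact 95% Poisson interval; the genes of the innate immunity list (asterisks), such as Trim30a at 7.10, 5.98 and 27.9 FPKM, have points of the R-labelled library to the right of the others except for Trim65.

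Genes were counted as apart when the log2 ratio of FPKM plus 0.1 was at least 1 in size, that is 2-fold, and either library had at least 1 FPKM. Pairs of libraries are written as P/N, R/N and R/P, for P over N and so on. For P/N, 0 of 33 TRIM genes were at least 2-fold higher or lower, where 0.521% of all 11139 genes compared were higher, 1.55% were lower and 2.07% were either. For R/N, 5 of 35 TRIM genes were higher, against 3.09% of all genes, and 0 were lower, against 1.88% (4.97% in either direction). For R/P, 5 of 35 were higher, against 4.16% of all genes, and 0 were lower, against 1.69% (5.85% in either direction). The 5 genes were Trim12c, Trim21, Trim30a, Trim30d and Trim34b in each case, and both comparisons use the same R-labelled library. Of these, Trim30d reached 1 FPKM in the R-labelled library alone, as did Trim6 among the 35 genes compared. The call of Trim30d was thus partly set by the threshold. The median log2 ratio of the TRIM genes was 0.052, 0.24 and 0.20 for P/N, R/N and R/P, and that of all genes was 0.033, 0.077 and 0.029. Without the 5 genes, the TRIM medians were 0.073, 0.20 and 0.058.

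**Figure D2:**
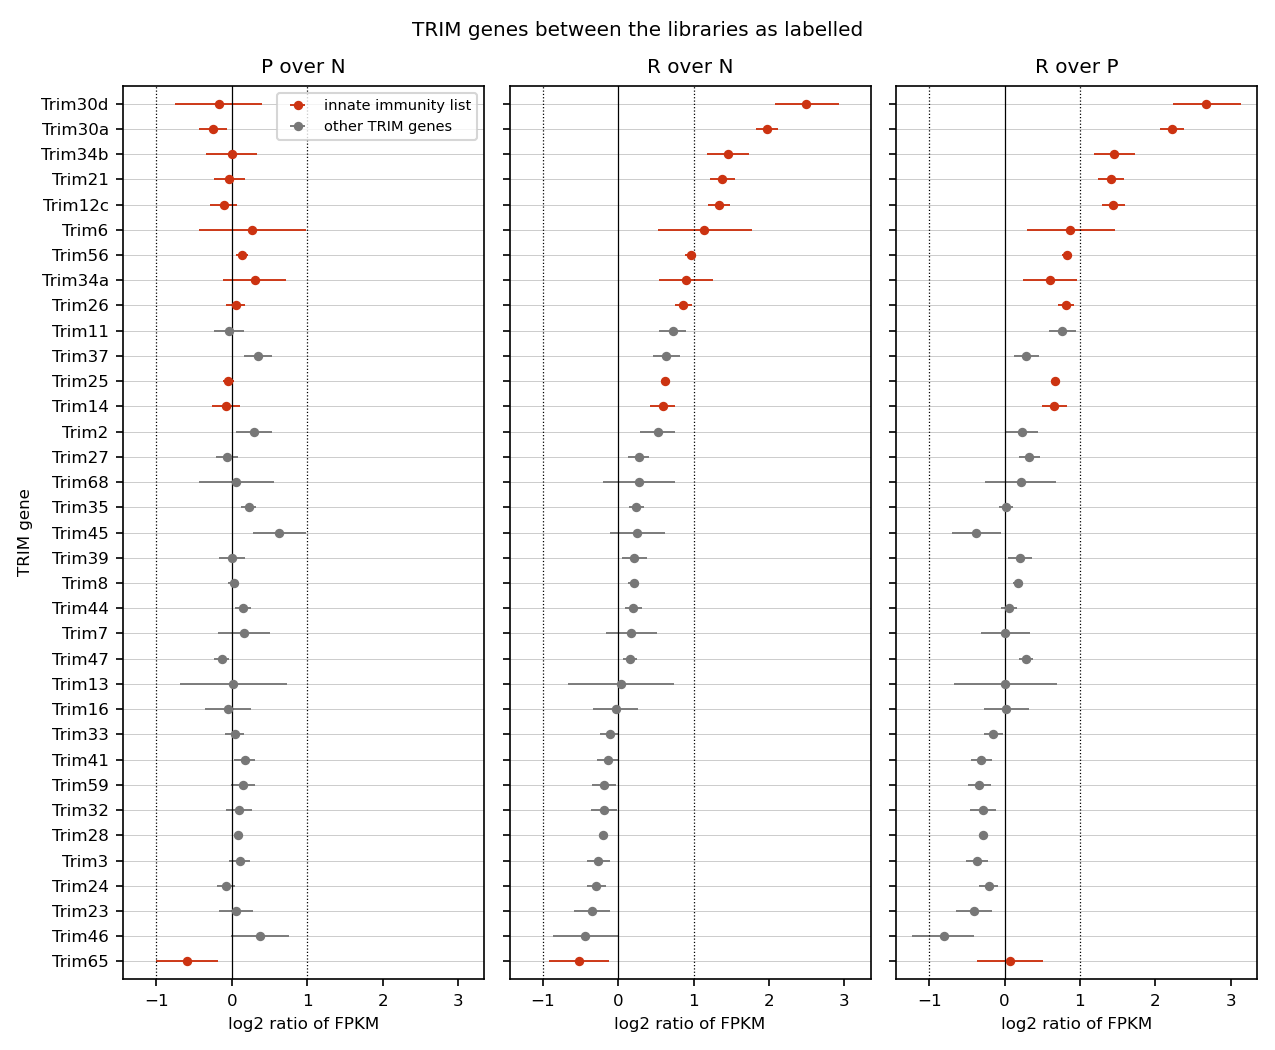
Log2 ratio of FPKM (horizontal) of each of the 35 TRIM genes (vertical) for the 3 pairs of libraries, with exact 95% Clopper-Pearson intervals and dotted lines at 2-fold. Ratios are drawn without the added 0.1, so Trim6, which was not counted as apart, lies past the line for R/N (2.19-fold); for P/N every point lies between the lines, from 0.665 (Trim65) to 1.55 (Trim45).

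All 5 genes counted as apart lie on chromosome 7 and belong to the innate immunity list. Trim30a, Trim30d and Trim12c share with Trim26 an upstream match to TTTCNNTTTC, a run of letters found in interferon-stimulated response elements, where IRF factors bind. The stretches around these matches are shown because they lie before the start sites of 3 of the genes that stood apart and of Trim26, an innate immunity gene that did not. Of the other two that stood apart, Trim34b had no match in its window and Trim21 had matches only after its start. They are RefSeq sequences of build GRCm38.p6, given 5′ to 3′ on the strand of the gene, with the matched letters in capitals.
Trim30a (chr7:104465195-104465254, minus strand): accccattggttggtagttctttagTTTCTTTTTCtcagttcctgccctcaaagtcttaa
Trim30d (chr7:104507856-104507915, minus strand): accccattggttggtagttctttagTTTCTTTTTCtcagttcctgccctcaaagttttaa
Trim12c (chr7:104353350-104353403, minus strand): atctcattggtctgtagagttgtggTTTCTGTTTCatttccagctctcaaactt
Trim26 (chr17:36836967-36837026, plus strand): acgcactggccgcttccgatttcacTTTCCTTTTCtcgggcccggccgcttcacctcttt

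The stretches of Trim30a and Trim30d were identical at 59 of 60 bases. Distances are counted from the start in the RefSeq table, which for Trim12c lies 9 bases and for Trim26 16 bases inside the gene bounds given below. The first base of the match lies 36 bases before the start of Trim30a, 41 before that of Trim30d, 29 before that of Trim12c and 154 before that of Trim26. Trim26 holds another match 160 bases before its start, which overlaps the one shown. The windows searched, on both strands, run from 250 bases before to 50 bases after the start of a gene, and 27 of the 35 genes had one. Trim3, Trim8, Trim11, Trim14, Trim16, Trim33, Trim35 and Trim65 had none. The letters were found in the windows of 6 of 10 innate immunity genes, Trim21 and Trim34a among them with matches after the start, and in 1 of 17 other TRIM genes (Trim2). Of all 27025 genes with windows, 3.99% held them. TTCNNNGAA, the letters of gamma-activated sites, was found in 0 of the 10 and 2 of the 17 genes (Trim45 and Trim46), and in 9.55% of all genes with windows. A match describes letters and is no evidence of binding.

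The genes of the Trim30 group were furthest apart. Trim30a (chromosome 7, 104408711 to 104465193), which restrains NF-κB signaling by degrading TAB2 and TAB3, had 7.10 FPKM in the N-labelled library, 5.98 FPKM in the P-labelled library and 27.9 FPKM in the R-labelled library, from about 517, 419 and 2063 fragments. The R-labelled library stood well above the others, which lay close together. The ratio was 3.93 for R/N (3.56 to 4.33), 4.66 for R/P (4.19 to 5.18) and 0.843 for P/N (0.739 to 0.961). Trim30d (chromosome 7, 104470014 to 104507849), its paralog with a role against flaviviruses, had 0.830, 0.735 and 4.67 FPKM from about 56, 49 and 336 fragments. It thus passed 1 FPKM only in the R-labelled library. Its ratio was 5.62 for R/N (4.23 to 7.60) and 6.35 for R/P (4.70 to 8.76), and the ratio of 0.885 for P/N lay within counting error (0.591 to 1.32). Trim30b (chromosome 7, 104355398 to 104358646) had at most 1 fragment in any library.

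Trim12c (chromosome 7, 104338754 to 104353358), a mouse counterpart of the human restriction factor TRIM5, had 8.13, 7.53 and 20.4 FPKM in the N-, P- and R-labelled libraries, from about 526, 464 and 1424 fragments. Its R/N ratio was 2.52 (2.27 to 2.78), with 2.71 for R/P (2.44 to 3.02). It was again high in the R-labelled library alone, as the ratio for P/N was 0.927 (0.816 to 1.05). Its neighbor Trim12a (chromosome 7, 104299897 to 104315495) had 2, 0 and 4 fragments. Trim34b (chromosome 7, 104329379 to 104338748), related to human TRIM34, had 2.26, 2.26 and 6.20 FPKM from about 148, 148 and 436 fragments. The N- and P-labelled libraries were level, and the ratio was 2.74 for both R/N and R/P (2.27 to 3.33 in each). Trim34a (chromosome 7, 104244457 to 104262236) differed less, at 3.55, 4.37 and 6.62 FPKM. Its ratio was 1.87 for R/N (1.46 to 2.40) and 1.51 for R/P (1.19 to 1.94). Trim30a, Trim30b and Trim30d, Trim34a and Trim34b, and Trim12a and Trim12c are close copies of each other, so reads may have been shared among them and the value of each copy is less certain than these intervals state.

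These genes form 1 cluster with Trim6, which makes free ubiquitin chains that act on the kinase IKKε. The cluster holds 8 TRIM genes within 289 kb of chromosome 7, and 6 of them reached 1 FPKM. All 6 were higher in the R-labelled library than in both others, beyond counting error. Trim6 and Trim30d passed the limit only through the R-labelled library, and without them this held for 4 of 4 genes. Neither count has a share over all genes beside it. The sum of the 6 genes, which is less touched by reads shared between neighbors, was 22.3, 21.4 and 66.8 FPKM in the N-, P- and R-labelled libraries. Trim6 itself (chromosome 7, 104218795 to 104235152) had 0.471, 0.565 and 1.03 FPKM from about 33, 39 and 77 fragments. It lay just under the 2-fold limit for R/N, with a log2 ratio of 0.99, and was the TRIM gene just above the 1 FPKM threshold. Next above it were Trim13 with a highest level of 1.27 FPKM and Trim68 with 1.93 FPKM, and just under it lay Trim43c with 0.836 FPKM and Trim62 with 0.497 FPKM. Position on the chromosome alone did not mark the genes that stood apart. Trim28 and Trim3, elsewhere on chromosome 7, were lower in the R-labelled library than in both others, and Trim68 (102677585 to 102687327) differed by less than counting error, with a ratio of 1.21 for R/N (0.872 to 1.69).

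**Figure D3:**
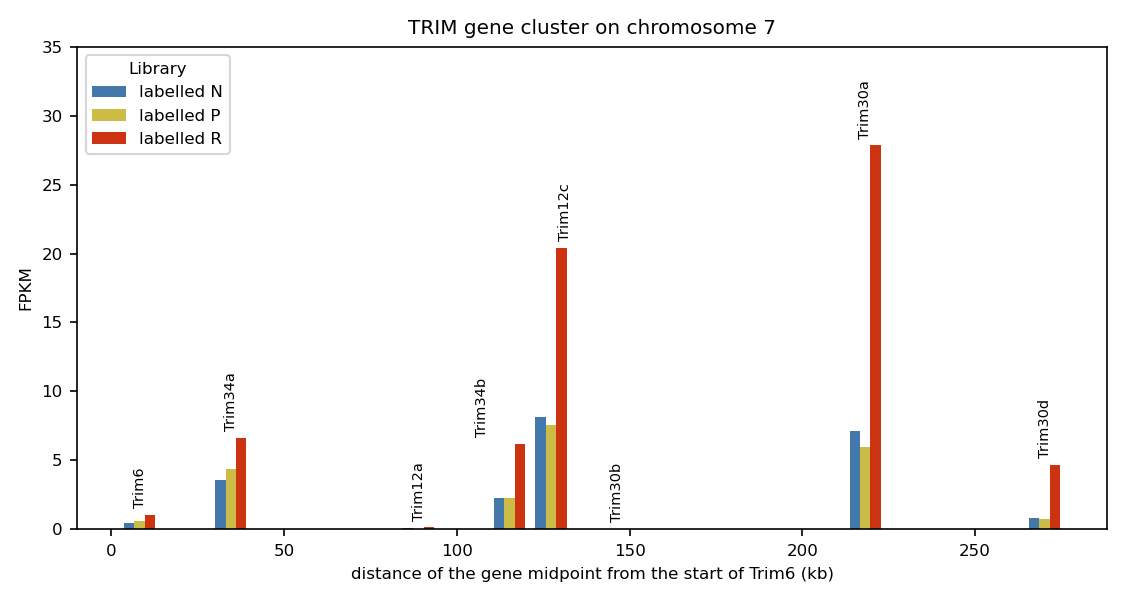
FPKM (vertical) of the 8 TRIM genes of the chromosome 7 cluster, placed by the distance of the gene midpoint from the start of Trim6 in kb (horizontal), with 1 bar per library. The bars of the R-labelled library are the tallest at each of the 6 measured genes, up to 27.9 FPKM at Trim30a, while Trim12a and Trim30b lie near 0.

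Trim21 (chromosome 7, 102557887 to 102565482) lies apart from the cluster and encodes a cytosolic antibody receptor that directs antibody-bound viruses to the proteasome. Its level was 8.09, 7.91 and 21.0 FPKM in the N-, P- and R-labelled libraries, from about 404, 394 and 1123 fragments. Again the R-labelled library stood apart, with a ratio of 2.60 for R/N (2.32 to 2.92), 2.66 for R/P (2.37 to 2.99) and 0.978 for P/N (0.849 to 1.13). Nearly all of this level, 96.7% to 98.6%, lay on assembled transcripts with 9 exons, where the longer RefSeq transcript has 8. The RefSeq transcripts alone gave 0.115, 0.261 and 0.338 FPKM, too low to be compared.

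Of the 12 innate immunity genes, 11 were higher in the R-labelled library than in the N-labelled library beyond counting error, and Trim65 was lower. For R/P, 11 were higher beyond counting error and Trim65 was within it. Such counts were not made over all genes. The median log2 ratio of the list was 0.97 for R/N and 0.82 for R/P, and -0.04 for P/N over the 10 genes compared. Members that differed by less than 2-fold included the most abundant ones. Trim25 (chromosome 11, 88999403 to 89020293), which ubiquitinates the RNA sensor RIG-I, had 32.1, 31.0 and 49.5 FPKM from about 3176, 3072 and 5247 fragments. Its ratio was 1.54 for R/N (1.48 to 1.61), 1.60 for R/P (1.53 to 1.67) and 0.966 for P/N (0.919 to 1.02). The N- and P-labelled libraries thus did not differ beyond counting error. Trim56 (chromosome 5, 137105500 to 137116207), which promotes signaling from DNA and double-stranded RNA sensors, had 15.7, 17.3 and 30.6 FPKM from about 2583, 2859 and 5369 fragments. Its ratio was 1.94 for R/N (1.85 to 2.04), 1.77 for R/P (1.69 to 1.86) and 1.10 for P/N (1.04 to 1.16), just short of 2-fold for R/N. No other innate immunity gene was above 1 for P/N beyond counting error. Trim26 (chromosome 17, 36837130 to 36859976), a regulator of IRF3 and interferon-β, had 14.9, 15.4 and 27.1 FPKM from about 1008, 1045 and 1968 fragments. Its ratio was 1.82 for R/N (1.69 to 1.97), 1.76 for R/P (1.63 to 1.89) and 1.04 for P/N (0.95 to 1.13). In these 3 genes, too, the R-labelled library was the high one and the others lay within 1.10-fold of each other. Trim14, which has no RING finger and serves as an adaptor of the mitochondrial antiviral protein MAVS, had 8.71, 8.28 and 13.1 FPKM, with a ratio of 1.5 for R/N (1.34 to 1.68).

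Trim65 (chromosome 11, 116124708 to 116131128), which ubiquitinates the RNA sensor MDA5, did not follow the other innate immunity genes. It had 2.33, 1.55 and 1.62 FPKM from about 127, 84 and 95 fragments and was highest in the N-labelled library, with a ratio of 0.665 for P/N (0.498 to 0.882), 0.696 for R/N (0.528 to 0.916) and 1.05 for R/P (0.773 to 1.42). With the labels N and P exchanged, its log2 ratio for R/N was 0.06. The remaining members of the list were not measured. Trim12a, Trim30b and Trim38 stayed under 1 FPKM, and Trim31 and Trim40 were listed at 0.

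Leukocyte markers differed between the libraries as well. Their sum was higher in the N-labelled library (7.32 FPKM) than in the P-labelled library (0.417 FPKM), whereas the innate immunity genes gave 104.2 and 102.9 FPKM there. The N-labelled library is the one labelled as having no co-culture. Whether this order bears on the uncertain labels was not tested. Between the N- and R-labelled libraries, the sum of the markers was about the same (7.32 and 6.65 FPKM), and the innate immunity genes were at 104.2 and 209.8 FPKM. Between the P- and R-labelled libraries both were higher in the latter, the markers at 0.417 and 6.65 FPKM and the innate immunity genes at 102.9 and 209.8 FPKM. All 4 measured leukocyte markers were at least 2-fold higher for R/P, with a median log2 ratio of 3.42. Of 5 macrophage and neutrophil markers compared, 1 was at least 2-fold higher for R/N, Mpeg1 (0.697, 0.227 and 24.5 FPKM). At least 2-fold lower were 2, Lyz2 (28.9, 0.313 and 6.51 FPKM) and S100a9 (5.74, 0 and 2.03 FPKM). Cd68 (21.4, 18.0 and 19.2 FPKM) and S100a8 (8.20, 0.546 and 5.58 FPKM) were within counting error for R/N. For R/P 4 of the 5 were at least 2-fold higher, and Cd68 was within counting error. The defining macrophage marker Adgre1 was near 0 in each library (0.042, 0.026 and 0.035 FPKM). The part of leukocyte RNA in the TRIM levels was not tested.

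The TRIM genes of highest level were mostly outside the innate immunity list and differed little. The 5 highest in each library held 54.1%, 53.6% and 47.6% of all TRIM FPKM in the N-, P- and R-labelled libraries. In the R-labelled library these included Trim56 (30.6 FPKM) in place of Trim35 (26.6 FPKM). The 5 of highest mean level were Trim28, Trim8, Trim47, Trim25 and Trim35. Trim28 (chromosome 7, 13024152 to 13031032), the corepressor KAP1 that KRAB zinc finger proteins recruit to silence retroelements, had 89.1, 94.7 and 77.7 FPKM from about 5170, 5490 and 4829 fragments. It was the highest TRIM gene in each library and was lowest in the R-labelled library, with a ratio of 0.871 for R/N (0.838 to 0.906) and 0.820 for R/P (0.789 to 0.853). Trim8 (chromosome 19, 46501648 to 46516455), a ligase of NF-κB and p53 signaling, had 52.5, 53.4 and 60.5 FPKM from about 3045, 3094 and 3764 fragments. It was slightly higher in the R-labelled library, with a ratio of 1.15 for R/N (1.10 to 1.21) and 1.13 for R/P (1.08 to 1.19). Trim47 (chromosome 11, 116105750 to 116110235), a PRY-SPRY member, had 42.9, 39.1 and 47.7 FPKM from about 1685, 1535 and 2006 fragments. Its ratio was 1.11 for R/N (1.04 to 1.19), 1.22 for R/P (1.14 to 1.30) and 0.911 for P/N (0.850 to 0.977). Trim35 (chromosome 14, 66297025 to 66311424), which binds the glycolytic enzyme PKM2, was the only one of the 5 at about the same level in the P- and R-labelled libraries. It had 22.5, 26.3 and 26.6 FPKM from about 1485, 1732 and 1881 fragments, and ratios of 1.17 for P/N (1.09 to 1.25), 1.18 for R/N (1.10 to 1.27) and 1.01 for R/P (0.948 to 1.08). Trim25, described above, was the other one.

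The 3 measured genes with a PHD finger and a bromodomain were all lowest in the R-labelled library. Together with Trim66, which was under 1 FPKM, they summed to 106.4, 111.5 and 92.5 FPKM, or 24.1%, 24.5% and 16.6% of all TRIM FPKM, and the median log2 ratio of the measured genes was -0.20 for R/N and -0.21 for R/P. Trim24 (chromosome 6, 37870811 to 37968445), a coactivator of nuclear receptors that also ubiquitinates p53, had 10.6, 10.1 and 8.70 FPKM from about 1167, 1106 and 1025 fragments. It was below both others in the R-labelled library, with a ratio of 0.819 for R/N (0.753 to 0.892) and 0.864 for R/P (0.793 to 0.941). Trim33 (chromosome 3, 103279293 to 103358770), which works with SMAD proteins in TGF-β signaling, had 6.60, 6.77 and 6.10 FPKM from about 1045, 1073 and 1036 fragments. It was within counting error for R/N, at a ratio of 0.925 (0.848 to 1.01), and below 1 for R/P at 0.901 (0.826 to 0.982). The PRY-SPRY genes, the largest class by number, ran the other way. This class overlaps the innate immunity list and holds all 5 genes counted as apart, so its values are not separate from those above. Of 32 members 18 were measured, and the sum over all 32 was 192.9, 192.1 and 296.6 FPKM, or 43.7%, 42.2% and 53.1% of all TRIM FPKM. Their median log2 ratio was -0.02 for P/N, 0.67 for R/N and 0.63 for R/P, and with RefSeq transcripts alone it was 0.05, 0.27 and 0.33.

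Of the genes with known roles in neurons, 3 of 5 were measured, and they did not move together. Trim3 (chromosome 7, 105604463 to 105633571), a ligase of the postsynaptic density, had 14.8, 15.8 and 12.3 FPKM from about 761, 815 and 679 fragments. It was lowest in the R-labelled library, with a ratio of 0.834 for R/N (0.751 to 0.926) and 0.777 for R/P (0.701 to 0.861). Trim2 (chromosome 3, 84160439 to 84304775), which ubiquitinates the neurofilament light chain, was instead highest there, at 2.02, 2.48 and 2.90 FPKM from about 267, 328 and 411 fragments. Its ratio was 1.44 for R/N (1.23 to 1.68) and 1.17 for R/P (1.01 to 1.36). Trim46 (chromosome 3, 89234177 to 89245897), which organizes microtubules of the axon initial segment, had 1.93, 2.50 and 1.43 FPKM from about 103, 131 and 83 fragments. It was the TRIM gene lowest relative to the P-labelled library, with a ratio of 0.571 for R/P (0.429 to 0.758) and 0.739 for R/N (0.547 to 0.997). Its direction depended on the assembled transcript at the locus, as the RefSeq transcripts alone had 0.773, 0.638 and 1.02 FPKM and a log2 ratio of 0.36 for R/N. The list median turned with it, from -0.26 to 0.36 for R/N and from -0.36 to 0.22 for R/P.

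The other TRIM genes outside the innate immunity list ranged from 0.739 to 1.65 in their ratio for R/N. Over all 23 such genes the median log2 ratio was 0.15 for R/N, 0.01 for R/P and 0.09 for P/N. At the upper end was Trim11, a ligase of protein quality control, with 8.06, 7.85 and 13.3 FPKM and a ratio of 1.65 for R/N (1.46 to 1.87). Trim37, which restrains centrosome assembly and acts in peroxisome biogenesis, had 4.85, 6.18 and 7.56 FPKM and a ratio of 1.56 for R/N (1.38 to 1.76). Lower in the R-labelled library than in both others, beyond counting error, were 7 genes: Trim3, Trim24, Trim28 and Trim46 above, and Trim23, Trim32 and Trim59. Trim23, which carries an ARF GTPase domain, had 4.39, 4.57 and 3.45 FPKM. Trim32, a ligase of actin and other muscle proteins, had 9.48, 10.2 and 8.33 FPKM. Trim59, a membrane-bound member, had 9.67, 10.7 and 8.51 FPKM. Higher in the R-labelled library than in both others, beyond counting error, were 7 of the 23 genes: Trim2, Trim8, Trim11, Trim37 and Trim47 above, and Trim27 and Trim39, which had 10.1, 9.71 and 12.2 FPKM and 9.35, 9.40 and 10.9 FPKM. Neither count of 7 has a share over all genes beside it. The ER-anchored Trim13, the PRY-SPRY genes Trim7 and Trim68, and Trim16, which has no RING finger, were within counting error in each pair of libraries. Trim44, Trim41 and Trim45 completed the group, with 12.6, 14.0 and 14.5 FPKM for Trim44, 13.3, 15.0 and 12.1 FPKM for Trim41 and 1.39, 2.15 and 1.66 FPKM for Trim45.

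Between the P- and N-labelled libraries the TRIM genes differed little. The interval of the ratio lay above 1 for 8 of the 35 genes, below 1 for 3 and around 1 for 24. The genes furthest from 1 were Trim45, with a ratio of 1.55 (1.22 to 1.98), and Trim65, with 0.665. For R/N the corresponding counts were 20, 8 and 7, and for R/P 18, 10 and 7. No such counts were made over all genes, so whether the TRIM genes differ from them in this is not known. The counts for P/N keep their size with the labels exchanged, and the directions turn.

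Assembled transcripts carried much of the TRIM signal. They occurred at 16 of the 35 genes and held more than 50% of the FPKM in each library at 8 of them. At 6 genes (Trim6, Trim21, Trim23, Trim25, Trim56 and Trim59) they held more than 90%. At Trim56 the assembled transcript was 9389 bases long against 3637 bases in RefSeq and reached 5786 bases further at its 3′ end, with the same number of 3 exons. The RefSeq transcript alone gave 0.577, 0.373 and 1.25 FPKM, so that most fragments of Trim56 were credited to the longer form. At Trim25 the R-labelled library held 17.3 FPKM on an assembled transcript of 11 exons and 5503 bases that was listed at 0 in the others. The N-labelled library held 11.8 FPKM on another of 11 exons and 5521 bases, likewise listed at 0 in the others, and a form of 10 exons had 17.8, 29.2 and 29.4 FPKM. These forms differ by few bases and share most of their reads, so the gene sum is the firmer value. On its RefSeq transcript alone, Trim25 had 1.62, 0.968 and 1.40 FPKM and a log2 ratio of -0.20 for R/N, against 0.62 for the gene sum. Trim30a stood apart on its RefSeq transcript too, with 4.99, 5.12 and 25.3 FPKM. On RefSeq transcripts alone, 4 of 30 TRIM genes were at least 2-fold higher for R/N, against 5.17% of all 10270 genes compared in that way, namely Trim12c, Trim30a, Trim30d and Trim34b. For R/P there were 5 of 30, against 6.21% of 10292 genes, Trim56 being the added one. Of these, Trim30d and Trim56 reached 1 FPKM on RefSeq transcripts in the R-labelled library alone.

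**Figure D4:**
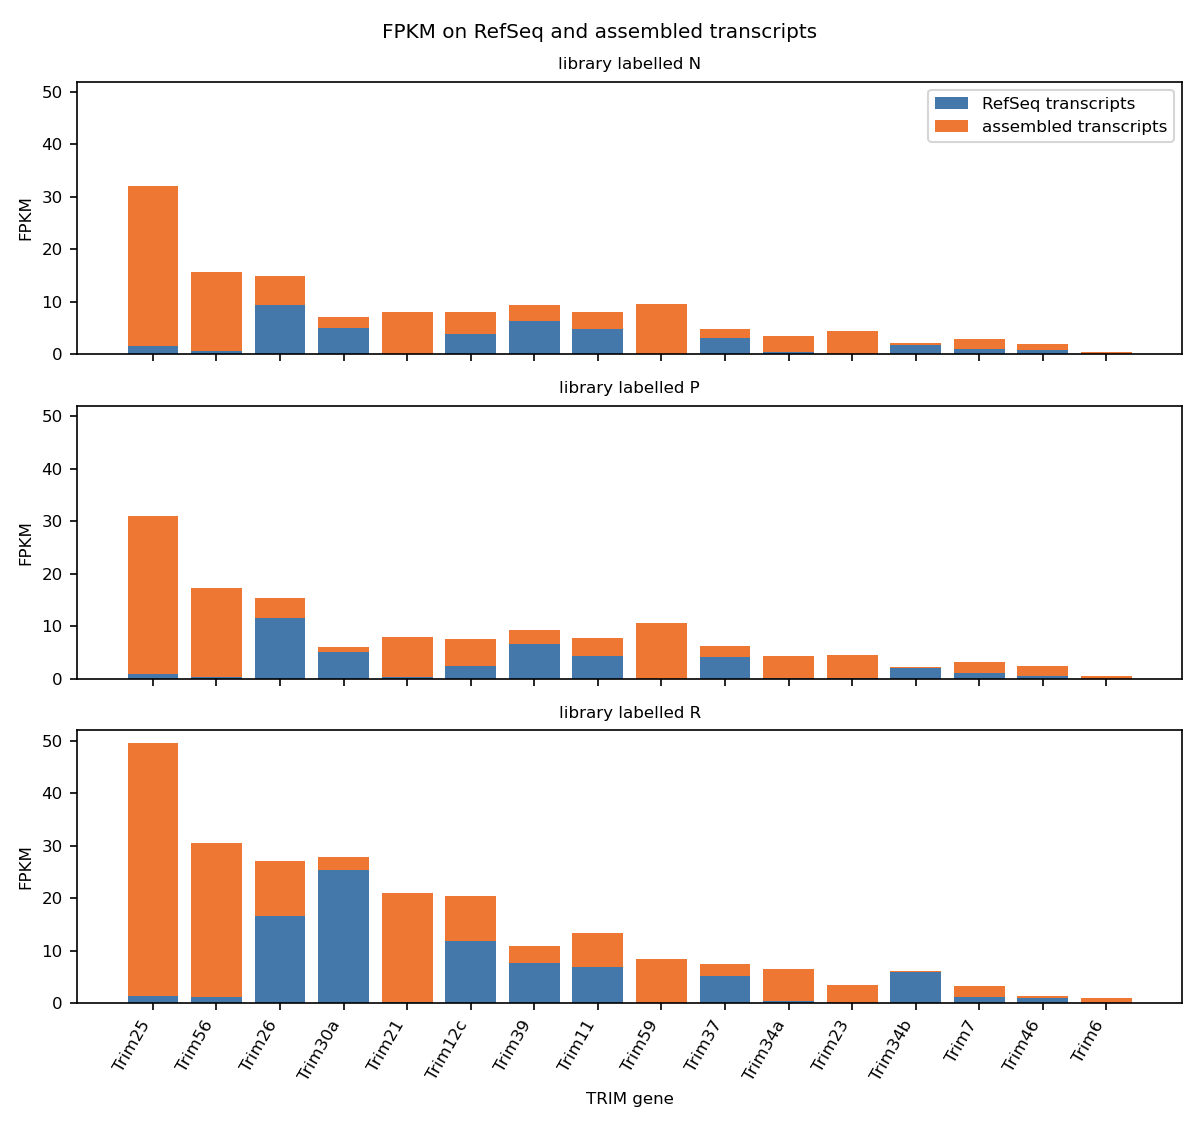
FPKM (vertical) on RefSeq transcripts and on assembled transcripts, stacked, of the 16 TRIM genes with assembled transcripts (horizontal) in each library. Trim25, Trim56, Trim21, Trim59, Trim23 and Trim6 consist almost wholly of assembled transcripts, and Trim30a in the R-labelled library of its RefSeq transcript (25.3 of 27.9 FPKM).

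The TRIM genes under 1 FPKM were Trim9, Trim10, Trim12a, Trim15, Trim17, Trim29, Trim30b, Trim36, Trim38, Trim43a, Trim43b, Trim43c, Trim50, Trim54, Trim55, Trim62, Trim63, Trim66, Trim67, Trim69, Trim71, Trim72 and Trim75. In 16 of these 23 no library had more than 10 fragments. Trim38, Trim63 and Trim75 were listed at 0 in each library. All 4 genes of striated muscle (Trim54, Trim55, Trim63 and Trim72) were in this group, with sums of 0.240, 0.402 and 0.435 FPKM. Trim10, of the red cell lineage, had at most 1 fragment. Another 8 Trim symbols occurred in the data as gene identifiers at 0 only (Trim31, Trim40, Trim42, Trim52, Trim58, Trim60, Trim61 and Trim80).

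Genes that work with TRIM ligases were compared by lists. Of TRIM proteins with other names, Pml, the organizer of nuclear bodies, had 17.3, 16.3 and 37.9 FPKM in the N-, P- and R-labelled libraries. It was 2.19-fold higher for R/N (2.07 to 2.32) and 2.32-fold higher for R/P (2.19 to 2.47). The midline proteins Mid1 (2.08, 1.78 and 1.73 FPKM) and Mid2 (1.80, 1.82 and 1.96 FPKM) were within counting error in each pair, and Mefv stayed under 1 FPKM. The ubiquitin-activating and conjugating enzymes that hand ubiquitin to TRIM ligases differed little. Of 14 listed 13 were measured, 0 were 2-fold apart in any pair, and the medians were -0.03, 0.08 and 0.12. The activating enzyme Uba1 was the highest of them, at 112.2, 111.4 and 134.8 FPKM.

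All 12 RNA and DNA sensing proteins listed as TRIM substrates or partners were measured. Each had a log2 ratio above 0 for R/N and for R/P, with medians of 0.23 and 0.23, but 1 alone was at least 2-fold apart. This was Ifih1, encoding MDA5, with 4.42, 4.40 and 14.0 FPKM and a ratio of 3.17 for R/N (2.85 to 3.54). Tab2, a substrate of Trim30a, was the highest of the list and nearly level, at 25.2, 26.4 and 26.8 FPKM. Of 14 interferon signaling genes and induced factors, 7 were at least 2-fold higher for R/N, 8 for R/P and 0 lower in either, with medians of -0.35, 1.06 and 1.26 for P/N, R/N and R/P. For R/N the 7 were Stat2 (29.8, 20.9 and 82.8 FPKM), Irf9 (5.34, 6.66 and 15.9 FPKM), Irf1 (79.4, 53.4 and 275 FPKM), Irf7 (48.5, 38.0 and 220.8 FPKM), Isg15 (96.2, 63.6 and 225.7 FPKM), Usp18 (21.7, 17.1 and 57.5 FPKM) and Ube2l6 (12.7, 12.5 and 51.1 FPKM). They encode transcription factors of the interferon response and the ISG15 conjugation and removal proteins. Ifnar2, a chain of the type I interferon receptor, was added for R/P, with 15.8, 11.9 and 29.1 FPKM. Of the 14 genes, 10 were lower in the P-labelled library than in the N-labelled library, as were 7 of the 10 innate immunity TRIM genes compared. The innate immunity TRIM genes other than Trim65 differed by at most 1.23-fold between these libraries.

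**Figure D5:**
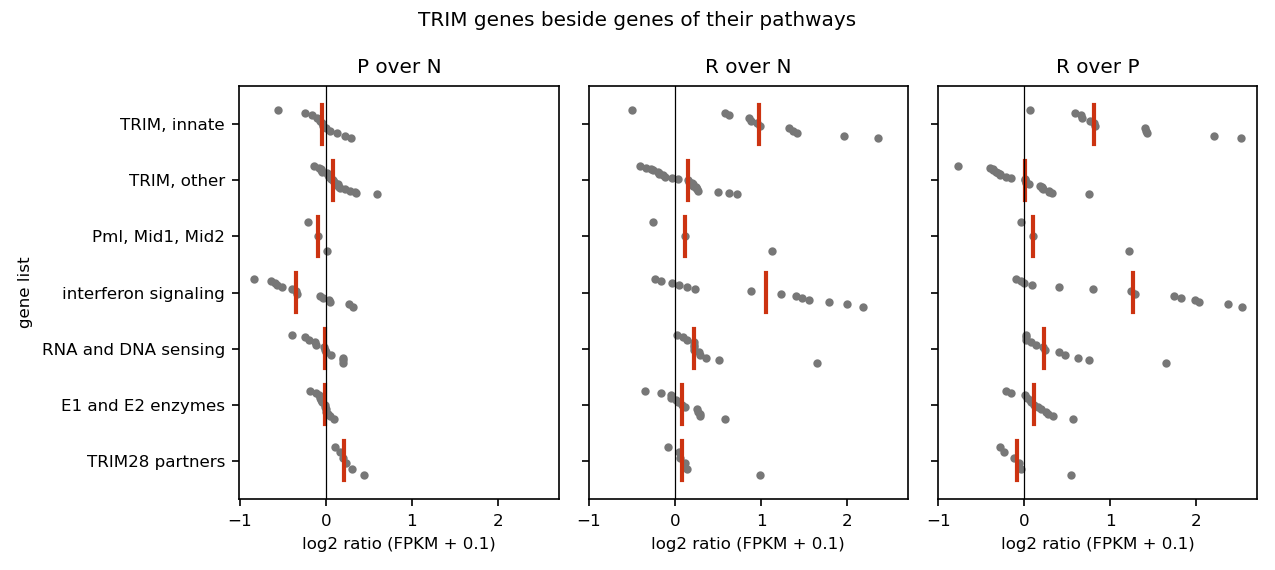
Log2 ratio of FPKM plus 0.1 (horizontal) of the measured genes of each list (vertical) for the 3 pairs of libraries. Grey points are genes and red bars medians, which for the innate immunity TRIM genes lie at -0.04, 0.97 and 0.82 from left to right and for the other TRIM genes at 0.09, 0.15 and 0.01.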

How the data were processed

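RNA of 4T1 CSCsp was sequenced in 3 libraries. The authors aligned reads with HISAT2 (version 2.2.0) and quantified transcripts with StringTie (2.1.3 by the processing notes, 2.1.5 by the file headers). The deposited values are coverage, FPKM and TPM per RefSeq or assembled transcript. The notes name mm9, but coordinates of 99.2% of 23419 symbols, all 58 TRIM genes included, overlap their gene in GRCm38. Read filtering is not given in the sources used here.

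FPKM was summed per gene over RefSeq and assembled transcripts of a locus, although the selection by symbol names RefSeq lines only, and RefSeq lines alone were run as an alternative. No TRIM locus was shared with another symbol. Fragments were estimated from aligned bases at 300 bases per read pair. A pseudocount of 0.1 FPKM was added before ratios were taken, and no test was run on 1 library per condition. Genes given in full were those at least 2-fold apart, the 5 of highest mean and up to 4 of highest mean per role list. The members, lists and rules were chosen with earlier results of these data known. Of the interferon list, 1 gene is not reported here and was left out of its counts. Scripts were tested on simulated data. Alternatives were TPM, pseudocounts of 1 and 0.01, no filter or one of 5 FPKM, rescaling by the median ratio of 10586 genes, RefSeq transcripts alone, the transcript of highest mean FPKM, and N and P exchanged. The tools were SciPy 1.17.1, pandas 2.3.3 and NumPy 2.4.6 under Python 3.11.15, with Matplotlib 3.10.9 for plots.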

Additional observations from a re-analysis of the deposited data

How the results depend on the processing

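No paired analysis was possible because each condition has 1 library. The direction of the median log2 ratio of the TRIM genes for R/N and R/P was the same under every alternative run. Counts that moved by over 1.5 times were as follows. With TPM, 8 of 38 TRIM genes were at least 2-fold higher for R/N in place of 5 of 35, since the limit of 1 TPM admits more genes and values are scaled to a fixed total. With 1 transcript per gene, that of the highest mean, 1 gene was lower for P/N (Trim13), 2 were lower for R/N (Trim32 and Trim46), and 8 were higher and 1 lower (Trim46) for R/P. The cause was not tested. With no filter, 1 gene was lower for R/P, among genes that rest on few fragments. With N and P exchanged, the median for P/N was -0.05 in place of 0.05, and 5 genes were higher for R/N and for R/P. Among single ratios, 15 moved by more than counting error and 72 did not with RefSeq transcripts alone, against 30 and 73 with the highest transcript, 4 and 99 with rescaling, 41 and 62 with N and P exchanged and 2 and 101 with a pseudocount of 1. The cause of shifts with RefSeq transcripts was not tested. Depth limits the low genes, as Trim6, Trim13 and Trim68 rest on fewer than 100 fragments in each library, and the spread between experiments is unknown.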

Other observations

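The partners of TRIM28 in gene silencing differed little. Of the 6 listed genes, all of them measured, 6 were higher in the P-labelled than in the N-labelled library, 5 were higher for R/N and 5 were lower for R/P, where Trim28 had log2 ratios of 0.09, -0.20 and -0.29. Among these genes, 0 were at least 2-fold apart in any pair of libraries, and their median log2 ratio was 0.21 for P/N, 0.09 for R/N and -0.09 for R/P. The histone methyltransferase Setdb1 had 11.3, 13.3 and 12.2 FPKM in the N-, P- and R-labelled libraries, and the HP1 protein Cbx3 35.4, 39.8 and 38.9 FPKM. Another HP1 protein, Cbx5, had 14.9, 18.4 and 15.6 FPKM and a ratio of 0.846 for R/P (0.803 to 0.892). The chromatin remodeler Chd3, at 34.4, 39.4 and 32.4 FPKM, was lowest in the R-labelled library, as Trim28 was, with a ratio of 0.824 for R/P (0.791 to 0.857). Zfp57, a KRAB zinc finger gene of imprinted regions, had 0.804, 1.13 and 1.69 FPKM and a log2 ratio of 0.99 for R/N, just under the 2-fold limit.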
